A study of Mus musculus with 45 samples.

Results

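Macrophages of the liver were followed through 10 marker genes: Emr1 (now called Adgre1, which encodes the macrophage surface receptor F4/80), Clec4f, Cd5l, Marco, Csf1r, Cd68, Cx3cr1, Ccr2, Itgax and Lyz2. The genes were chosen by name, and all 10 were found among the 23227 genes of the deposited count tables. All 10 had reads in each of 45 liver libraries and were among the 14067 genes that passed the expression filter. Levels are given as CPM (read counts scaled to the library's size with TMM), differences as log2 fold changes ± standard error, and a difference was called at an adjusted p below 0.05 over all genes tested.

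The libraries were polyA mRNA from pulverized frozen whole liver of wild-type C57BL/6J mice, all 24 weeks old and starved overnight. Their food was chow throughout, or a high-fat diet (HFD) from 18 weeks of age (6 weeks of HFD) or from 8 weeks of age (16 weeks), so that the length of HFD and the age at its start cannot be told apart. Basal livers came from each diet. On chow and 16-week HFD, livers were also taken 15, 30, 60 or 120 min after intraperitoneal insulin at 1 U/kg, and no vehicle-injected group was analysed here. Livers of mice given metformin in the drinking water, at 270 mg/kg lean body mass per day from 8 or 18 weeks of age, came from each diet. Of the 14 groups, 13 held 3 libraries and 1, 16-week HFD at 30 min of insulin, held 6. The libraries held 18.2 to 50.3 M counted reads each (median 21.9). The series states at least 3 mice per group, but no label ties a library to a mouse, so p-values measure the spread between these libraries. In whole tissue, more macrophages and more RNA of a gene per macrophage cannot be told apart.

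Kupffer cells are the resident macrophages of the liver sinusoids, where they clear bacteria, debris and aged red cells from the portal blood. They are seeded largely before birth and maintain themselves, and they depend on the receptor Csf1r and its ligands Csf1 and Il34. When Kupffer cells are lost or the liver is inflamed, monocytes enter through Ccr2 and its ligand Ccl2 and can become macrophages. Clec4f, a lectin, marks mature Kupffer cells. Cd5l, an apoptosis inhibitor secreted by macrophages, and Marco, a scavenger receptor, are typical of resident tissue macrophages. Csf1r, the lysosomal protein Cd68 and lysozyme M (Lyz2) are shared by most macrophages. The fractalkine receptor Cx3cr1, Ccr2 and the integrin Itgax (CD11c) are higher in monocytes, dendritic cells and recruited macrophages than in mature Kupffer cells.

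The deposited mm9 gene models place Emr1 at chr17:57498109-57622952 (plus strand), Clec4f at chr6:83594536-83606110 (minus), Cd5l at chr3:87161803-87174996 (plus) and Marco at chr1:122371115-122401661 (minus). Cd68 lies at chr11:69477873-69479564 (minus), Lyz2 at chr10:116714597-116719328 (minus) and Itgax at chr7:135273082-135294171 (plus). Cx3cr1 at chr9:119957811-119977400 (minus) and Ccr2 at chr9:124016922-124023879 (plus) are on the same chromosome. None of the 10 shares exon bases with another model. In transcripts, 23.3% of the 40-base words of Lyz2 also occur in Lyz1, so that reads could be split between these genes and Lyz2 values are uncertain. The share was 9.29% for Itgax (with Itgad), 2.46% for Ccr2 and below that for the others.

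Myeloid genes are controlled by the transcription factor PU.1, which binds a purine-rich core. The letters GAGGAAG were searched, on both strands, in the 250 bases before the start of transcription, in RefSeq promoters of GRCm38.p6. Windows of 8 of the 10 genes were searched. The core occurred in Cd5l, beginning 67 bases before the start, and in Marco, beginning 146 bases before it, and in 10.61% of 32851 promoters. These windows are shown because they hold the core, and capitals mark it, which Cd5l holds on the other strand as CTTCCTC. Both genes varied together between livers with Lyz2, Emr1 and Csf1r, as described with the correlations. The window of Lyz2 did not hold the core, and no window of Emr1 or Csf1r was searched.
Cd5l, chr3:87357631-87357880, plus strand: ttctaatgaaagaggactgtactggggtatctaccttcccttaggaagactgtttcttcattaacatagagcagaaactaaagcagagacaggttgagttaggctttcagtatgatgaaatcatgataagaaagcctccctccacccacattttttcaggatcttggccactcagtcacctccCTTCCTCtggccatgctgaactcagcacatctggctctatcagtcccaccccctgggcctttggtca
Marco, chr1:120505025-120505274, minus strand: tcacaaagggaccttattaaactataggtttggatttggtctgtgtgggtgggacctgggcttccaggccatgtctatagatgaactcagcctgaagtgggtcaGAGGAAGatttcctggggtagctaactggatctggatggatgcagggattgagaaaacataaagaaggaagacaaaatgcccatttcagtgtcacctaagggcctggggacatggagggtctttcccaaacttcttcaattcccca
The half-site letters of MAF factors, TGCTGA searched on both strands, occurred in 3 of the 8 windows (Clec4f, Cd5l and Lyz2) and in 16.08% of all promoters. No match says only that these letters are not in that window.

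Levels per exon length fell into 3 steps in basal chow liver. Cd5l had 38.6 ± 15.9 RPKM (CPM per kilobase of exon; SD, n = 3), Lyz2 38.5 ± 13.9 and Clec4f 29.2 ± 7.37, and these ranges overlapped. Csf1r at 9.95 ± 3.54, Marco at 6.70 ± 5.34, Cd68 at 5.89 ± 0.994 and Emr1 at 4.19 ± 1.57 RPKM followed, each overlapping the next. Ccr2 at 0.240 ± 0.0862, Itgax at 0.183 ± 0.0634 and Cx3cr1 at 0.141 ± 0.0479 RPKM were lowest, below every library of the other genes. The last group rests on few reads: Cx3cr1 had 4 to 135 reads per library over the 45 libraries, Itgax 6 to 285 and Ccr2 10 to 183, against at least 57 for every other gene. Marco had the widest span of CPM, 4.29 to 195 (45.4-fold), and Clec4f the narrowest, 42.2 to 163 (3.87-fold).

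**Figure D1:**
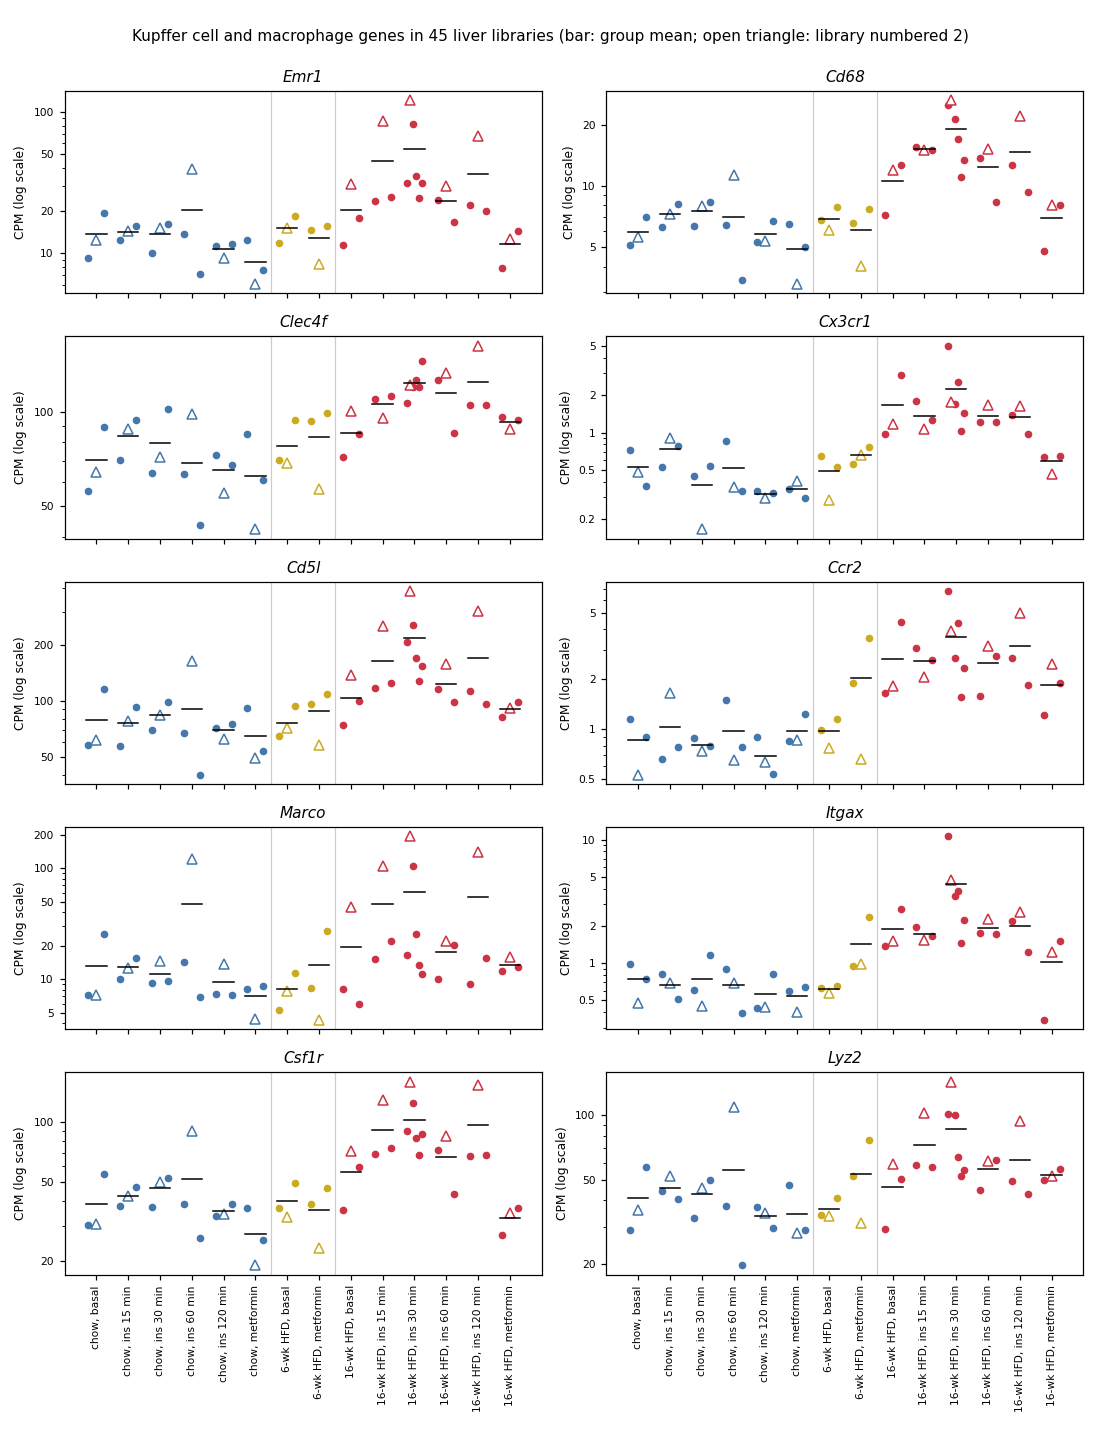
CPM (log axis) of each gene in the 45 libraries, 1 panel per gene, by group; points are libraries, bars group means and open triangles libraries numbered 2. Cx3cr1, Itgax and Ccr2 sit higher in the 16-week HFD groups without metformin than in chow, and in Emr1 and Marco the open triangles of 16-week HFD stand above the other libraries of their groups, apart from Emr1 under metformin.

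The first comparison asked how diet alone moved the genes in basal liver. After 6 weeks of HFD none of the 10 genes was called, against 11.0% of all genes tested. Their log2 differences from chow ran from -0.68 (Marco) to 0.23 (Cd68), with a median of 0.0063, and no member reached an unadjusted p below 0.05. After 16 weeks of HFD all 10 differences were positive, with a median of 0.58 against 0.019 over all genes. Of the 10, Cx3cr1 and Ccr2 were called higher, against 32.3% of all genes called and 16.0% called higher, so the share of the members is near the background. DESeq2, and edgeR on only these 2 groups, called 4 of 10, with Cd68 and Itgax added. Basal libraries of the diets also differed in a technical measure, the rank correlation of a library's deviations with GC content. It was -0.30 to -0.078 in chow, -0.24 to -0.16 after 6 weeks and 0.17 to 0.32 after 16 weeks of HFD. After insulin, chow (-0.24 to 0.081) and 16-week HFD (-0.24 to 0.34) overlapped. A correction for GC content is among the alternatives below.

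Cx3cr1 was at 0.721, 0.481 and 0.372 CPM in basal chow, 0.650, 0.287 and 0.528 CPM after 6 weeks and 0.968, 1.17 and 2.91 CPM after 16 weeks of HFD. All 3 libraries of 16 weeks lay above the other 6. The log2 difference was 1.60 ± 0.46 from chow (edgeR quasi-likelihood test, adjusted p = 0.0071) and 1.75 ± 0.44 from 6 weeks (adjusted p = 0.010). Ccr2, the monocyte chemokine receptor, was at 1.15, 0.534 and 0.902 CPM in chow, 0.995, 0.776 and 1.16 CPM after 6 weeks and 1.66, 1.83 and 4.45 CPM after 16 weeks. Again the 3 livers of 16 weeks were highest, with a log2 difference of 1.56 ± 0.50 from chow (adjusted p = 0.016) and of 1.42 ± 0.48 from 6 weeks (adjusted p = 0.051, not called). In both genes 1 library, replicate 3 of 16-week HFD, was well above the other 2. Without it, the difference from chow was no longer called in either gene and that of Cx3cr1 was 0.96. Ccr2 was also not called without replicate 2 of chow. The difference of Cx3cr1 from 6 weeks was not called without replicate 3 of 16-week HFD or without replicate 2 of 6-week HFD.

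Itgax was at 0.991, 0.481 and 0.743 CPM in chow, 0.629, 0.575 and 0.650 CPM after 6 weeks and 1.38, 1.52 and 2.73 CPM after 16 weeks. The 16-week livers did not overlap with either group. The difference of 1.59 ± 0.50 from 6 weeks was called (adjusted p = 0.037) and that of 1.28 ± 0.51 from chow was not (adjusted p = 0.053). With 1 library left out, the difference from 6 weeks stayed called in 1 of 6 fits. Cd68 was at 5.14, 5.61 and 7.06 CPM in chow and 7.15, 11.97 and 12.7 CPM after 16 weeks, a difference of 0.85 ± 0.34 (adjusted p = 0.053) between groups that just did not overlap. Between 16 and 6 weeks, 2 of 10 genes were called (Cx3cr1 and Itgax), against 10.2% of all genes.

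The Kupffer cell genes overlapped between basal chow and 16-week HFD. Emr1 was at 9.24, 12.3 and 19.2 CPM in chow and 11.5, 31.1 and 17.8 CPM after 16 weeks (log2 difference 0.58 ± 0.57, adjusted p = 0.46). Clec4f was at 55.8, 64.6 and 89.9 CPM against 72.0, 101 and 84.9 CPM (0.29 ± 0.25, adjusted p = 0.39). Marco was at 7.16, 7.21 and 25.5 CPM against 8.16, 44.5 and 5.95 CPM (0.58 ± 1.02, adjusted p = 0.70). Only 1 library in each Marco group was high, replicate 3 of chow and replicate 2 of 16-week HFD. Cd5l (0.40 ± 0.42), Csf1r (0.53 ± 0.37) and Lyz2 (0.19 ± 0.41) were not called either, and Marco and Lyz2 turned negative when replicate 2 of 16-week HFD was left out.

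The diet comparison with more livers behind it was the mean over basal and the 4 insulin times, 15 chow against 18 libraries of 16-week HFD. All 10 genes were called higher on 16-week HFD. Over all genes 63.0% were called, 33.6% higher. The median log2 difference of the 10 was 1.14, against 0.029 over all genes. Itgax (1.72 ± 0.23, adjusted p = 8.0e-08), Ccr2 (1.71 ± 0.22, 4.2e-08) and Cx3cr1 (1.70 ± 0.21, 1.5e-08) had the largest differences and Lyz2 (0.55 ± 0.18, 0.0084) and Clec4f (0.59 ± 0.11, 1.7e-05) the smallest. Emr1 differed by 1.24 ± 0.25, Marco by 1.20 ± 0.45 (adjusted p = 0.019), Cd68 by 1.08 ± 0.15, Cd5l by 0.92 ± 0.18 and Csf1r by 0.91 ± 0.16. Marco was not called when replicate 2 of basal, 15 min or 120 min on 16-week HFD was left out, and the other 9 genes were called whichever single library was left out.

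**Figure D2:**
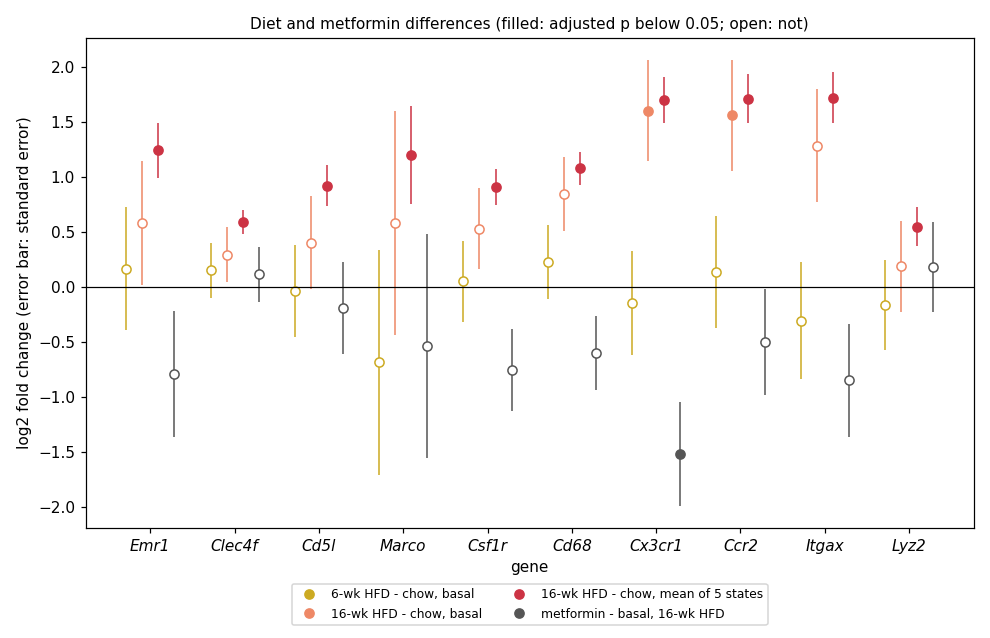
Log2 fold change (vertical axis; bars are standard errors) of each gene (horizontal axis) for 6-week and 16-week HFD against chow in basal liver, for the mean of basal and 4 insulin times, and for metformin against basal on 16-week HFD; filled points have an adjusted p below 0.05. The mean over 5 states is filled for all 10 genes, from 0.55 in Lyz2 to 1.72 in Itgax, and the metformin difference is filled for Cx3cr1 alone.

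The genes differed in how far the pooled livers were apart. Cx3cr1 ran from 0.165 to 0.907 CPM (median 0.443) in the 15 chow libraries and from 0.968 to 5.04 CPM (median 1.41) in the 18 libraries of 16-week HFD. Itgax ran from 0.394 to 1.17 CPM (median 0.690) against 1.22 to 10.6 CPM (median 2.07). In both genes every liver of 16-week HFD lay above every chow liver, which held for 2.46% of all genes tested; ranges were apart in either direction for 5.85%. Ccr2 ran from 0.534 to 1.67 CPM (median 0.787) against 1.57 to 6.83 CPM (median 2.70), and 15 of the 18 lay above the highest chow liver. The ratios of medians were 3.18 for Cx3cr1, 3.01 for Itgax and 3.43 for Ccr2.

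Cd68 ran from 3.43 to 11.2 CPM (median 6.41) in chow and from 7.15 to 26.3 CPM (median 14.3) on 16-week HFD, with 14 of 18 libraries above the highest chow library. Clec4f, the Kupffer cell lectin, ran from 43.5 to 103 CPM (median 70.4) against 72.0 to 163 CPM (median 111), with 13 of 18 above. The overlap was wider for the remaining Kupffer and pan-macrophage genes. Emr1 ran from 7.14 to 39.4 CPM (median 12.3) against 11.5 to 121 CPM (median 27.5), with 4 of 18 above. Marco ran from 6.86 to 121 CPM (median 10.1) against 5.95 to 195 CPM (median 18.5), with 2 of 18 above. Cd5l (ratio of medians 1.85), Csf1r (1.90) and Lyz2 (1.57) had 6, 5 and 1 of 18 above. In these 5 genes the highest chow value came from a single liver, replicate 2 at 60 min of insulin, described below.

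Within single states, Cx3cr1, Ccr2 and Itgax had 16-week HFD libraries without overlap above chow in all 5. Cd68 did so in 4 states, Emr1, Clec4f, Cd5l, Csf1r and Lyz2 in 3 and Marco in none. By state, ranges were apart for 4 of 10 genes in basal liver, 9 at 15 min, 9 at 30 min, 3 at 60 min and 9 at 120 min. Over all genes, ranges were apart in 48.2%, 46.2%, 32.1%, 36.6% and 46.9% in these states, with 16-week HFD above chow in 23.5%, 24.0%, 16.5%, 17.8% and 23.8%. Genes called were 4 of 10 at 15 min (24.4% of all genes called), 10 at 30 min (37.3%), 4 at 60 min (22.4%) and 8 at 120 min (28.2%). With 1 library left out, 0 to 4 genes were called at 15 min, 6 to 10 at 30 min, 0 to 3 at 60 min and 2 to 9 at 120 min, the 2 without replicate 2 of 16-week HFD. At 60 min the called genes were Itgax (1.50), Cx3cr1 (1.39), Ccr2 (1.37) and Clec4f (0.75 on the log2 scale). Emr1 (0.21 ± 0.56) and Lyz2 (0.00073 ± 0.41) had their smallest diet differences there, and that of Marco was negative (-1.44 ± 1.01), beside the high chow liver of that time.

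Emr1, Cd5l, Marco, Csf1r and Lyz2 rose and fell together from liver to liver within groups. This set, and a second set of Cx3cr1, Ccr2 and Itgax, were formed after their values were seen, and the correlations that follow are descriptions over libraries that share groups. Of log2 CPM taken as deviations from group means over 45 libraries, the 10 pairs of the first set had Pearson's r of 0.83 to 0.96 (median 0.88). The 3 pairs of the second set had 0.65 to 0.70. Between the sets, 15 pairs ran from -0.15 to 0.43 (median 0.21), so a liver high in Emr1 was not in general high in Cx3cr1 for its group. Emr1 and Marco had r = 0.89 and Emr1 and Cx3cr1 -0.06. Over all 45 libraries, diet differences included, the pairs between the sets ran from 0.35 to 0.76. Cd68 went with both sets within groups, at 0.65 to 0.88 with the first and 0.33 to 0.66 with the second. Clec4f went with the first set, at 0.48 to 0.76, and at 0.05 to 0.20 with the second.

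**Figure D3:**
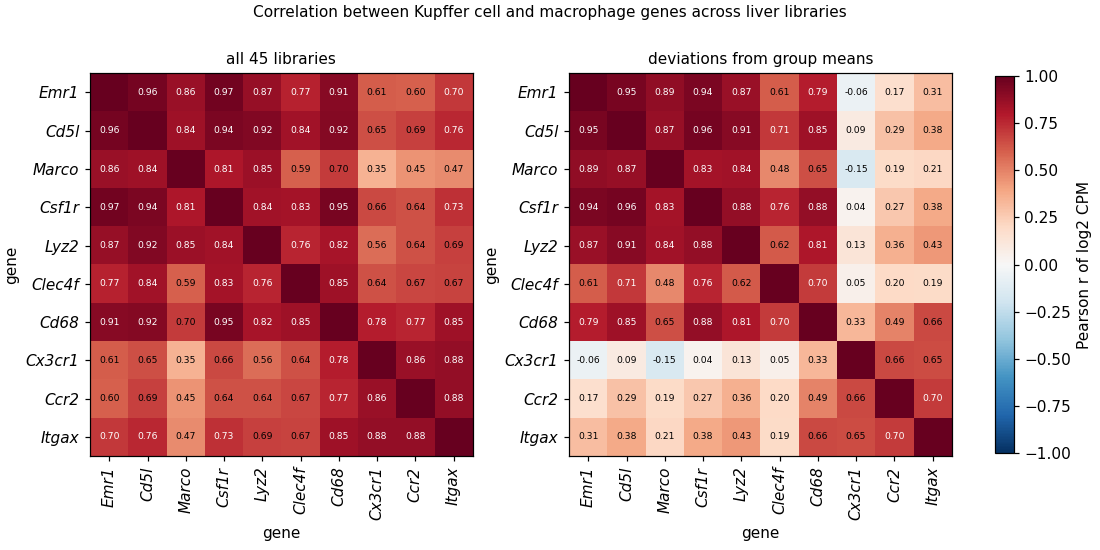
Pearson's r of log2 CPM between the 10 genes (both axes), over 45 libraries (left) and over deviations from group means (right); colour runs from -1 to 1. Emr1, Cd5l, Marco, Csf1r and Lyz2 form a block of 0.83 or more on the right, Cx3cr1, Ccr2 and Itgax one of 0.65 to 0.70, and the field between them runs from -0.15 to 0.43.

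Livers that stood apart in the first set were mostly those numbered 2 on 16-week HFD. Replicate 2 was the highest of its group for Emr1, Cd5l, Marco and Csf1r in all 5 states of 16-week HFD. Marco was at 44.5, 104, 195, 22.1 and 141 CPM in replicate 2 of basal, 15, 30, 60 and 120 min, where the other libraries of 16-week HFD had 5.95 to 25.4 CPM except replicate 3 at 30 min (104 CPM). On chow, replicate 3 was the highest in 4 of 5 states for Emr1, Cd5l, Csf1r and Cd68. The exception was 60 min of insulin, where replicate 2 had 39.4 CPM of Emr1, 121 of Marco, 164 of Cd5l, 89.8 of Csf1r and 109 of Lyz2. In that liver Cx3cr1 was at 0.365, Ccr2 at 0.656 and Itgax at 0.693 CPM, inside the chow range. Its neutrophil marker sum was 15.6 CPM (3.49 to 16.4 over chow) and its sums for endothelium (437), T cells (3.32) and dendritic cells (9.66) were inside the chow ranges.

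With all libraries numbered 2 left out, a choice made after seeing the data, 9 of 10 genes were still called in the mean over 5 states, against 49.3% of all genes. Marco was not (0.50, adjusted p = 0.26) and Emr1 differed by 0.87. In basal liver none was then called, against 15.0% of all genes, with Cx3cr1 at 1.75 (adjusted p = 0.054) and Ccr2 at 1.55 (adjusted p = 0.066) in a smaller design. Over the remaining 10 chow and 13 livers of 16-week HFD, Cx3cr1, Ccr2 and Itgax did not overlap, with ratios of medians of 2.86, 3.19 and 2.51. Over all genes ranges were apart for 7.99% in these livers, with 16-week HFD higher for 3.57%.

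**Figure D4:**
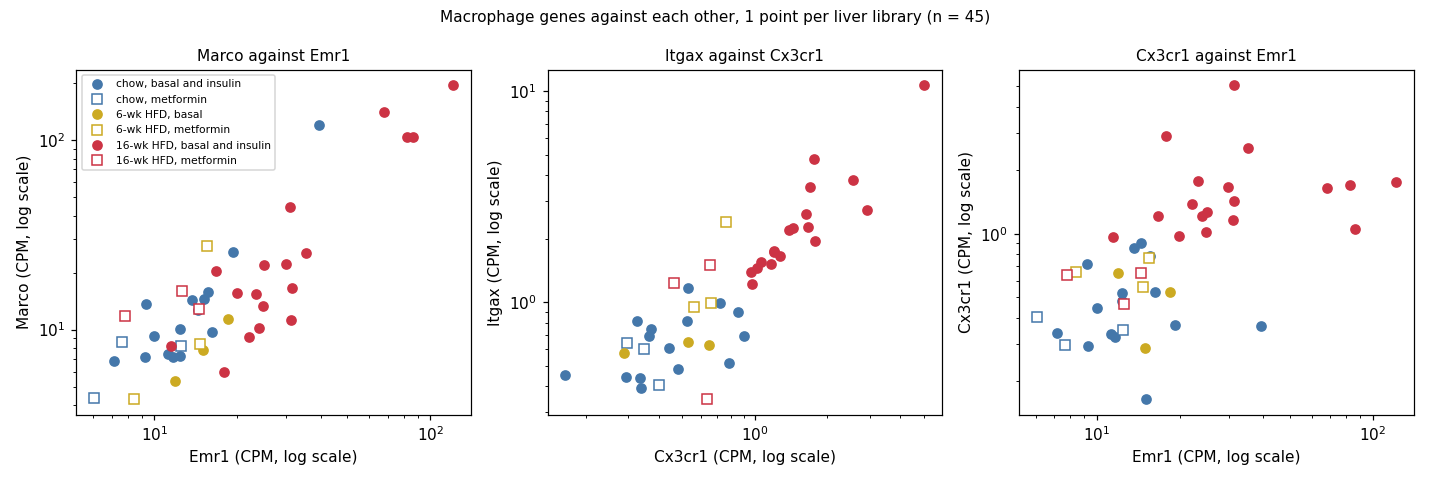
CPM of 2 genes against each other (log axes), 1 point per library (n = 45), coloured by diet with open squares for metformin. Marco goes with Emr1 within both diets, Itgax goes with Cx3cr1 and sets chow and 16-week HFD without metformin apart, and Cx3cr1 against Emr1 shows the 5 libraries with the most Emr1 at 0.365 to 1.76 CPM of Cx3cr1.

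The 3 genes most like each marker over the 45 libraries were taken by Pearson's r of log2 CPM among 14067 genes, as a description. Cd5l went with the complement genes C1qc (0.982) and C1qb (0.969) and the adaptor Tyrobp (0.976), and Lyz2 with Tyrobp (0.938), C1qc (0.932) and Cd5l (0.922). Emr1 went with Itgal (0.971), Csf1r (0.966) and Cd44 (0.962), and Csf1r with Itgb2 (0.975), Cd97 (0.971) and Sdc3 (0.971). Marco went with Timd4 (0.909), a Kupffer cell receptor for dying cells, Cfp (0.904) and Lilrb3 (0.899). Clec4f went with Folr2 (0.922), Fcgr4 (0.901) and Lilra5 (0.890). Cd68 went with Axl (0.967), Laptm5 (0.966) and Sdc3 (0.958). None of the 3 genes closest to Cx3cr1, Itgax or Ccr2 was among those of the other markers. Cx3cr1 went with the collagens Col1a1 (0.921) and Col1a2 (0.898) and with Ccdc80 (0.886), Itgax with Ciita (0.904), a regulator of MHC class II genes, Sema4d (0.892) and Col1a1 (0.886), and Ccr2 with Mmp12 (0.888), Ciita (0.887) and Cd72 (0.878).

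Insulin was compared with basal liver at each time. On chow none of the 10 genes was called at 15, 30, 60 or 120 min (1.13%, 0.0711%, 1.39% and 5.08% of all genes), and none had an unadjusted p below 0.05. On 16-week HFD none was called either (0%, 3.55%, 0.00711% and 0% of all genes). Unadjusted p below 0.05 was reached by 1 gene at 15 min, 7 at 30 min, 0 at 60 min and 2 at 120 min. The change after insulin was not called as different between the diets for any of the 10 (smallest adjusted p 0.35, Marco), against 0.263% of all genes.

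At 30 min on 16-week HFD all 10 differences from basal were positive, with a median of 0.88. Itgax differed by 1.23 ± 0.42 (adjusted p = 0.083), Cd68 by 0.84 ± 0.29 (0.084), Emr1 by 1.43 ± 0.51 (0.091) and Cd5l by 1.05 ± 0.38 (0.094). This group joins 2 runs of numbers that did not match. Emr1 was at 31.5, 121 and 82.5 CPM in replicates 1 to 3 and at 35.4, 24.8 and 31.3 CPM in replicates 4 to 6. Cd5l was at 206, 387 and 253 CPM against 169, 127 and 153 CPM. Ranges of replicates 1 to 3 lay above those of 4 to 6 for Cd5l, Csf1r, Cd68 and Lyz2, while Clec4f had means of 116 and 131 CPM. Itgax was at 10.6, 4.74 and 3.52 CPM against 3.81, 1.45 and 2.24 CPM. With replicates 4 to 6 left out, 6 of 10 genes were called, against 12.4% of all genes. With replicates 1 to 3 left out, a choice made after seeing the data, none was called (median 0.39), against 5.43% of all genes. The runs also differed in the rank correlation of a library's deviations with GC content. It was 0.19, 0.22 and 0.22 in replicates 1 to 3 and -0.23, -0.20 and -0.14 in replicates 4 to 6. The cause of the difference between the 2 runs was not tested.

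Metformin was compared with basal liver on each diet; these comparisons share their basal libraries with those of diet. On chow (1.94% of all genes called) and on 6-week HFD (3.17%) none of the 10 genes was called. On 6-week HFD the largest differences were those of Itgax (1.23 ± 0.51, adjusted p = 0.17) and Ccr2 (1.07 ± 0.49, adjusted p = 0.21), both led by replicate 3 with 2.38 and 3.55 CPM. On 16-week HFD Cx3cr1 was called lower, 1 of 10 genes, against 28.4% of all genes called and 11.5% called lower. Of the 10 differences 8 were negative, with a median of -0.57.

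Cx3cr1 was at 0.968, 1.17 and 2.91 CPM in basal and 0.636, 0.464 and 0.651 CPM in metformin livers of 16-week HFD. The groups did not overlap, and the log2 difference was -1.52 ± 0.47 (adjusted p = 0.015). The call rests on the joint fit of all 45 libraries and on single libraries. In a fit of only these 6 libraries, which called 0.109% of all genes, the difference was -1.56 with an adjusted p of 0.16, and -1.48 with 0.093 when that fit had the replicate block. It was also not called without replicate 3 of basal (-0.87), or without replicate 1 or 2 of metformin. Ccr2 was at 1.21, 2.47 and 1.90 CPM under metformin (-0.50 ± 0.48, adjusted p = 0.47) and Itgax at 0.347, 1.24 and 1.50 CPM (-0.85 ± 0.51, adjusted p = 0.23), and both overlapped with basal. Csf1r differed by -0.75 ± 0.37 (adjusted p = 0.13) and Emr1 by -0.79 ± 0.57 (adjusted p = 0.32), while Clec4f (0.11 ± 0.25) and Lyz2 (0.18 ± 0.41) were positive. Metformin libraries of 16-week HFD also differed in technical measures: the rank correlation of a library's deviations with exon length was -0.61 to -0.27, against -0.22 to 0.15 in basal libraries. With the length trend removed, Cx3cr1 was still called (-1.37).

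Between the diets under metformin, none of the 10 genes was called, for 16 weeks (20.4% of all genes called) or 6 weeks of HFD (4.43%). All 10 differences of 16-week HFD from chow were positive, and 1 gene was called without replicate 1 of chow metformin. Cx3cr1 was at 0.349, 0.403 and 0.296 CPM on chow, below all 3 libraries of 16-week HFD, with a log2 difference of 0.74 ± 0.56 (adjusted p = 0.37). Clec4f, Marco and Lyz2 also did not overlap, with differences of 0.57 ± 0.25, 0.93 ± 1.07 and 0.60 ± 0.42. These make 4 of 10 genes, and ranges were apart for 27.8% of all genes, with 16-week HFD higher for 14.4%. The change with metformin was not called as different between HFD and chow for any of the 10, for 16 weeks (4.96% of all genes) or 6 weeks (0.0427%). For Cx3cr1 the difference between 16-week HFD and chow in that change was -0.87 ± 0.74.

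Ligands and wider macrophage genes were described from fixed lists, over the mean of the 5 states. In that mean 63.0% of all genes were called, 33.6% higher. Of 6 tested genes among the ligands of the receptors (with the receptor chains Csf2ra and Csf2rb), 5 were higher on 16-week HFD. Csf1 differed by 0.52 ± 0.07 and Csf2ra by 0.94 ± 0.14, Il34 by 0.68 and Ccl2 by 1.96, while the Cx3cr1 ligand Cx3cl1 was not called (0.36, adjusted p = 0.071). In basal liver 3 of the 6 were higher after 16 weeks, among them Ccl2 (2.40 ± 0.73) and Csf1 (0.51 ± 0.17), and none after 6 weeks. Over all genes 16.0% were called higher in basal liver after 16 weeks, and 11.0% were called after 6 weeks. Of 13 monocyte and recruited cell genes, 10 were higher (among them Plac8, 1.04 ± 0.14) and 1 lower, the immediate early gene Nr4a1 (-1.45). Of 11 lipid-associated macrophage genes, 8 were higher, led by the elastase Mmp12 (3.67 ± 0.38) and Gpnmb (2.89 ± 0.50), and Cd9 was lower (-0.63). These 11 genes summed to a median of 16283 CPM over the 45 libraries, against 318 CPM for the 10 markers. Which liver cells the RNA of this list and of the other lists came from was not tested. Of 17 general myeloid genes, 15 were higher (Mpeg1 1.42 ± 0.17, Laptm5 1.23 ± 0.16) and none lower.

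Further Kupffer and tissue macrophage genes moved less. Of 16, 10 were higher, against 33.6% of all genes called higher. Id3, a regulator of Kupffer cell identity, was lower (-0.40). The median of the 16 was 0.35, against 0.98 for the monocyte list and 0.029 over all genes. The receptor Axl (1.13 ± 0.13), the transcription factor Maf (0.52 ± 0.07), Timd4 (0.74) and C1qc (0.68) were higher, and Vsig4, a Kupffer cell complement receptor, was not called (0.23, adjusted p = 0.14). The difference between the lists was not tested. In basal liver 3 of the 16 were higher after 16 weeks, among them the lipid-sensing receptor Nr1h3 (0.27 ± 0.09). This is near the 16.0% of all genes called higher there. Mmp12 (3.06 ± 0.75), Gpnmb (3.73 ± 1.12) and Chi3l3 (3.55 ± 0.94), a lectin of activated macrophages, were higher after 16 than after 6 weeks. Under metformin on 16-week HFD, the apoptotic cell receptor Mertk (-0.93 ± 0.18), Lyz1 (-1.82 ± 0.50) and the mannose receptor Mrc1 (-0.74 ± 0.25) were lower and Nr1h3 (0.31 ± 0.09) and Apoe (0.50 ± 0.14) higher. Over all genes 28.4% were called in that comparison, 11.5% lower. A fit of only the basal and metformin libraries of 16-week HFD called 0.109% of all genes. On chow, Nr4a1 was higher at 30, 60 and 120 min of insulin (3.67, 3.94 and 3.08). At 30 min of insulin on 16-week HFD, Maf (0.75), the iron exporter Slc40a1 (0.75) and Ptprc (1.16), which encodes the leukocyte antigen CD45, were higher. That group joins the unlike runs of replicates described above. Over all genes 500 were called in that comparison, and from 0 to 2181 under the alternatives.

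Markers of other liver cells moved with the diet as well. The 10 genes summed to 149 to 635 CPM in 15 chow and 242 to 1164 CPM in 18 libraries of 16-week HFD, a ratio of medians of 1.86. T cell markers summed to 1.97 to 3.48 against 3.62 to 6.50 CPM (1.48), without overlap. Sinusoidal endothelial markers summed to 345 to 540 against 376 to 743 CPM (1.47), stellate cell markers to 260 to 346 against 210 to 659 CPM (1.16) and neutrophil markers to 3.49 to 16.4 against 6.81 to 19.2 CPM (1.50). Hepatocyte markers had a ratio of 0.92. In the mean over 5 states, 63.0% of all genes were called, 33.6% higher. Called higher were 9 of 10 endothelial, 8 of 9 dendritic, 4 of 7 T cell and 2 of 7 neutrophil markers. None of 4 B cell and 5 NK cell markers was called higher. Stellate markers were 7 higher and 1 lower of 10, and hepatocyte markers 1 higher and 5 lower of 8. Pancreatic markers had a median of 313 CPM in chow and 26.7 CPM on 16-week HFD, where they reached 17495 CPM in 1 library. Muscle markers reached 147 CPM in chow and 337 CPM on 16-week HFD, and 1230 CPM in basal 6-week HFD. The library of 17495 and that of 337 CPM were not the highest of their groups in Emr1 or Marco. Replicate 2 at 30 min of insulin, the library with the most Emr1 and Marco, had 6778 CPM of pancreatic markers. Under metformin on 16-week HFD, 6 of 10 endothelial and 5 of 10 stellate markers were called lower, against 28.4% of all genes called and 11.5% lower. A fit of only these 6 libraries called 0.109% of all genes. Hepatocyte markers summed to 131920 to 147400 CPM under metformin on 16-week HFD, against 97764 to 119850 CPM in its basal livers, without overlap. The part of these cells in the macrophage values was not tested.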

How the data were processed

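Per the labels, polyA mRNA was made into TruSeq libraries and sequenced as paired reads. Per the submitters' processing notes, TopHat 1.4.0, HTSeq, DESeq2 1.0.18 and the mouse build mm9 were used. The deposited raw counts of reads per gene were used for every result. The authors' deposited normalized signal values (read counts adjusted with CQN and DESeq2, per the labels) entered 1 alternative only, as log2(value + 1) in limma 3.58.1 for insulin within a diet.

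Groups came from titles and characteristics. Genes passed filterByExpr of edgeR 4.0.16 at a minimum count of 10 (14067 of 23227). All 45 libraries were fitted together with 1 coefficient per group and TMM scaling, 24 comparisons went through edgeR's quasi-likelihood F test, and p-values were adjusted by Benjamini-Hochberg over all genes in each. Standard errors were obtained as |log2 fold change| over the root of F, approximate at low counts. CPM use TMM library sizes, and log2 CPM for correlations a prior count of 2. RPKM divide CPM by the exon length of the deposited models. Counting error is largest for Cx3cr1, Ccr2 and Itgax. The 10 genes and the gene lists were chosen with earlier results of these data known; named are all 10, in each list the 2 called genes of lowest adjusted p, other list members where the text says what they are, and the 3 genes most correlated with each of the 10. A few genes named by this rule were left out of the text.

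The alternatives tried were scaling by RLE, testing without the filter, a replicate block, a fit restricted to the compared groups, DESeq2 1.42.0, correction for exon length and for GC content, the deposited normalized values, and leaving out libraries. Counts of 14067 genes were simulated with 200 genes changed. In the basal comparison of 16-week HFD with chow, 65% of 2-fold and 28% of 1.5-fold changes were recovered (7% of calls false). In the mean over 5 states, 94% and 81% were recovered (5.91% false). In the data 32.3% and 63.0% of all genes were called in these comparisons, so the simulated rates may not hold there. Words of 40 bases shared between genes were taken from the transcripts of GENCODE M21. Replicate numbers recur in all groups, but no label ties them to a mouse, litter or day; of 91 pairs of groups, 5 had all 3 same-numbered correlations of deviations over 0.1, among them basal and metformin on 16-week HFD (0.24, 0.15 and 0.12) and on 6-week HFD (0.41, 0.16 and 0.30), for which the block is an alternative resting on this evidence only. R 4.3.3 and Python 3.11.15 were used.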

Additional observations from a re-analysis of the deposited data

Results flagged for a closer look

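In the 1 group of 6 libraries, 16-week HFD at 30 min of insulin, each of the 10 genes was tested for a library far from the others, and 1 stood out: Itgax in replicate 1, at 10.6 CPM, above 4.74 CPM in the next. Its gap divided by the range of the group was over Dixon's 95% critical value for 6 samples. Chance gives such a gap in about 1 in 20 groups. Replicate 1 also had the highest Cx3cr1 (5.04 CPM) and Ccr2 (6.83 CPM) of its group, while its Emr1 (31.5 CPM) and Marco (16.6 CPM) were not the highest. Its stellate cell markers summed to 659 CPM, the highest of the 18 libraries of 16-week HFD, and its hepatocyte markers to 77987 CPM, the lowest. The part of these cells in the Itgax value was not tested.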

How the results depend on the processing

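The 57 reported differences of single genes, recomputed under each planned and added alternative, kept direction and side of the threshold 487 times, were no longer called 49 times, became called 13 times and turned sign 5 times. With 1 library left out these numbers were 563, 71, 3 and 5. The 10 called genes of the mean over 5 states were 9 to 10 under every alternative and left-out library. In what follows, counts within a ratio of 1.5 of the main count are not listed singly. Such alternatives reached 6 genes at 15 min and 9 at 120 min for 16-week HFD against chow, and 3 between 16 and 6 weeks. In basal liver, 4 genes instead of 2 differed between 16-week HFD and chow with the replicate block, in DESeq2 and in a fit restricted to the 2 groups (restricted fit), and 0 with all libraries numbered 2 left out (1 library left out: 0 to 4; 0 without replicate 3 of 16-week HFD, 1 without replicate 2 of chow, 4 without replicate 1 of 16-week HFD). Between 16 and 6 weeks, 1 gene was called in the restricted fit and 0 without libraries numbered 2 (0 to 3; 0 without replicate 2 of 6-week or replicate 3 of 16-week HFD, 1 without replicate 1 or 3 of 6-week or replicate 2 of 16-week HFD). Metformin on 16-week HFD called 0 in the restricted fit, with or without the replicate block, and 0 without libraries numbered 2 (0 to 1). For 30 min of insulin on 16-week HFD, 7 genes were called with the replicate block, 7 with the block and the length trend removed and 6 without replicates 4 to 6 (0 to 2; 2 without replicate 5). For 16-week HFD against chow, 15 min gave 1 without libraries numbered 2 (0 to 4; 0 without replicate 1 of chow, 1 without replicate 2 or 3 of chow or replicate 2 of 16-week HFD), 30 min gave 5 without replicates 1 to 3 (6 to 10; 6 without replicate 1 of chow), 60 min gave 2 without the filter, 1 in the restricted fit and 1 without libraries numbered 2 (0 to 3; 0 without replicate 3 of chow or replicate 2 of 16-week HFD, 2 without replicate 1 or 2 of chow or replicate 1 of 16-week HFD), 120 min gave 0 without libraries numbered 2 (2 to 9; 2 without replicate 2 of 16-week HFD), and under metformin the range was 0 to 1 (1 without replicate 1 of chow). All other comparisons called 0 of the 10 throughout.

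Signs turned in basal liver. Against chow, Marco was -1.19 without libraries numbered 2 and -0.89 to 1.45 with 1 library left out, negative without replicate 2 of 16-week HFD. Lyz2 was -0.11 and -0.030 to 0.52, negative without replicate 2 of 16-week HFD or replicate 1 of chow. Against 6 weeks, with the same library negative, Emr1 was -0.051 and -0.044 to 0.70 and Marco -0.24 and -0.21 to 1.69. Clec4f was -0.070 without libraries numbered 2. Over all genes, metformin on 16-week HFD called 3992 genes, 14 in the restricted fit, and 30 min of insulin on 16-week HFD called 500, between 0 with the deposited normalized values and 2181 with the block and the length trend removed. In basal liver, 16-week HFD called 4539 genes, 2116 without libraries numbered 2. Leaving out libraries also leaves fewer samples. Other causes were not tested. Cx3cr1, with 4 reads in its lowest library, is limited by depth.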

Other observations

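T cell markers stood apart from the macrophage genes after 6 weeks of HFD. In basal liver 5 of 7 tested T cell markers were called higher than on chow (11.0% of all genes were called), and their sum was 8.28, 7.73 and 7.60 CPM against 3.11, 2.08 and 2.81 CPM, while none of the 10 macrophage genes was called. In metformin livers of 6-week HFD the T cell sum was 2.69, 3.96 and 7.78 CPM. NK cell markers also lay apart in basal liver, at 2.23 to 2.60 CPM after 6 weeks against 0.908 to 1.27 CPM on chow. The basal livers of 6-week HFD held 3.90 to 1230 CPM of muscle markers.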
